A study of Mus musculus with 12 samples.

Results

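The 44 collagen chain genes of the mouse were examined in peaks of AGO2-bound RNA from tibialis anterior (TA) muscle. They are the protein_coding genes of GENCODE M21 named Col, a number, a and a number, 44 of 21951 protein_coding genes, and every listed peak that overlapped one of them on the same strand by at least 1 nt was taken, with no threshold. In set 1 these were 399 of 92451 listed peaks in the wild-type (WT) library and 476 of 119859 in the mir-486 KO library. In set 2 they were 1232 of 244814 in WT and 1113 of 256219 in mir-486 KO.

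Chimeric eCLIP cross-links RNA to the proteins that hold it, recovers AGO2, the protein that carries microRNAs, and reads the RNA that came with it. Libraries came in 2 sets. A set held 1 WT and 1 mir-486 KO library of all AGO2-bound RNA, and each was compared with an input cut to the same fragment sizes. Mice were 6 months old, the labels give the strain as C57BL/6 for WT (wildtype) and FVB N/J for KO (miR-486-/-), and the methods describe males on a shared C57BL/6J background. The study describes the KO as a CRISPR deletion within the miR-486 hairpin. Genotype and labelled strain therefore cannot be told apart. The methods give more muscles per genotype than there are sets and say that the work was done in duplicate, but not how muscles map onto sets or whether they were pooled, and the spread over the 2 sets may be technical. Libraries further enriched for miR-486 were not analysed here.

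The genotype labels were checked at the mir-486 locus, where the WT libraries had 3 and 6 listed peaks and the KO libraries 0 and 0. All myofibre markers had listed peaks in each library. These ranged from 18 to 25 on Tnni2 up to 664 to 1464 on Ttn, which encodes the giant spring protein of the sarcomere. Of the 3 satellite cell markers, Myf5 had 0 listed peaks in each library, while Pax7 had 0 and 4 in WT and KO of set 1 and 7 and 5 in set 2, and Chodl had 4 and 4 in set 1 and 8 and 8 in set 2. Absolute read depth is unknown. Many collagen peaks carried repeated fold values: the commonest value was shared by 14.5% and 19.3% of collagen peaks in WT and KO of set 1, and by 8.04% and 9.61% in set 2.

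Collagens are secreted as triple helices of chains that carry glycine at a regular short interval. Types I, III and V build the fibrils of muscle connective tissue, type IV forms the sheet of the basement membrane around each myofibre and capillary, and type VI forms beaded filaments that link it to the fibrils. In muscle most of these chains are made by fibroblasts, with endothelial and other cells adding to type IV. The miR-29 family is known to repress many collagen mRNAs through sites in their 3′ UTRs, and the let-7 family has known sites in some of them.

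The seeds of these microRNAs, bases 2 to 8 in capitals, are shown because the 3′ UTR peaks below were searched for their complements. RefSeq gave the mature sequences, and the 3 members of the miR-29 family shared 1 seed.
miR-29a-3p: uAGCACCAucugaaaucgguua
miR-29b-3p: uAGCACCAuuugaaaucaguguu
miR-29c-3p: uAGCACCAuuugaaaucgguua
let-7a-5p: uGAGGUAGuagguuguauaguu

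A match to the miR-29 seed is the 7-nt word TGGTGCT on the transcript strand, and a match to the let-7 seed is CTACCTC. The miR-29 words that lay under an enriched peak in the 3′ UTR of a collagen gene are given next, with 15 bases before and 8 after the word (GRCm38, word in capitals, 5′ to 3′). A peak is called enriched here when its log2 fold over input was at least 3 and its −log10 p at least 3 in the authors' deposited lists.
Col6a3, chr1:90767412-90767418, minus strand: cgtgacctgtcaataTGGTGCTaaatgtgt
Col4a2, chr8:11448530-11448536, plus strand: ccaccacacccagctTGGTGCTtactctta
Col4a2, chr8:11448359-11448365, plus strand: gtgggaaggccacgtTGGTGCTtatccttc
Col1a1, chr11:94952538-94952544, plus strand: gtgggaaggaatttcTGGTGCTatagaagc
Col3a1, chr1:45348982-45348988, plus strand: ttcaaaatgtctcaaTGGTGCTataataaa
Col5a3, chr9:20770252-20770258, minus strand: aatcaggatcctacaTGGTGCTgccctgct
Col6a2, chr10:76596171-76596177, minus strand: tctccatcccatctgTGGTGCTaataggac
Of these 7 words in 6 genes, 4 were followed by an A, the base that extends a seed match to 8 bases.

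The let-7 words in enriched 3′ UTR peaks extended by 25 nt on each side were on the fibrillar chains Col3a1, under the peak, and Col1a2, just before it.
Col3a1, chr1:45349150-45349156, plus strand: tcctccctatgttaaCTACCTCaactggtc
Col1a2, chr6:4541077-4541083, plus strand: ttccaaaggtttgaaCTACCTCaagacact

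Listed peaks were spread over most chains and concentrated on a few. At least 1 library listed a peak on 39 of the 44 genes, and all 4 libraries listed one on 28. The 12 genes with the most listed peaks, Col1a2, Col3a1, Col4a1, Col4a2, Col1a1, Col6a3, Col5a1, Col15a1, Col5a2, Col6a1, Col6a2 and Col14a1, held between 78.3% and 82.4% of the collagen peaks in each library. The genes with 0 listed peaks in the 4 libraries were Col2a1, Col9a2, Col9a3, Col10a1 and Col28a1. Of the other chains known from cartilage, Col9a1 had 2 listed peaks, in KO of set 2, while Col11a1 had 3 and 4 in WT and KO of set 1 and 6 and 7 in set 2, and Col11a2 had 4, 3, 10 and 4 in the same order. These chains were named after their values were seen. Peak number follows transcript length and depth as well as AGO2 binding, so these counts rank genes within a library only loosely.

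**Figure D1:**
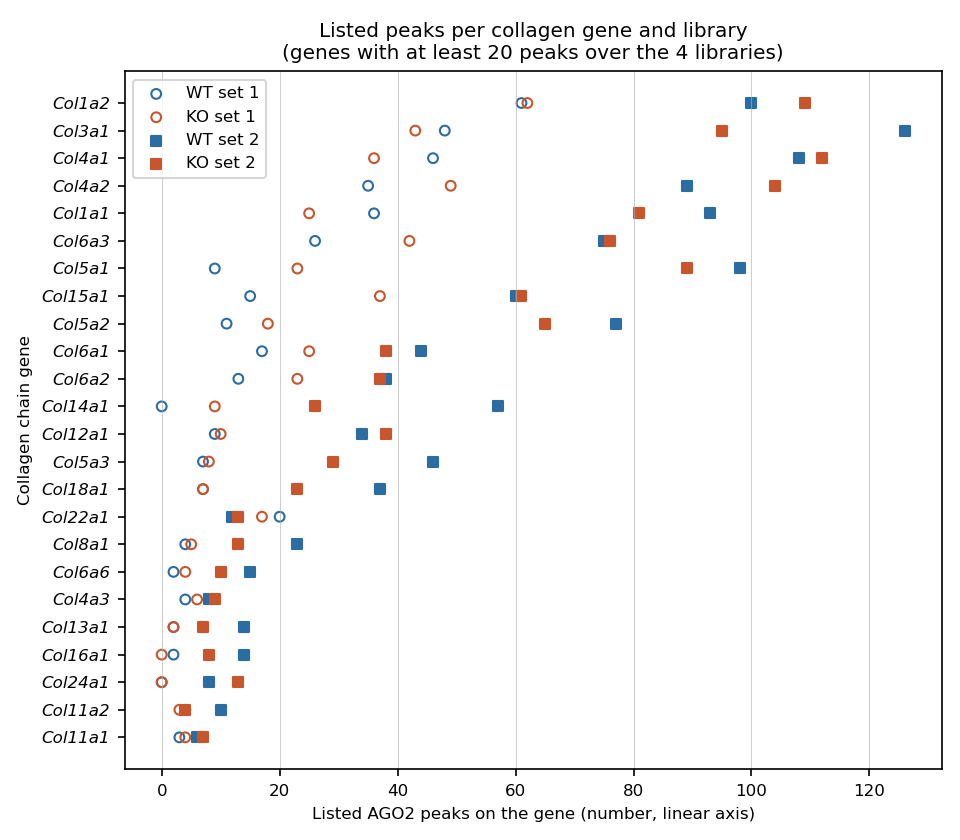
Number of listed AGO2 peaks (linear x axis) on each collagen gene with at least 20 peaks over the 4 libraries, blue for WT and red for mir-486 KO, open circles for set 1 and filled squares for set 2. Set 2 lies to the right of set 1 for most genes, as its lists are longer, and Col1a2, Col3a1, Col4a1 and Col4a2 lead.

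The fibrillar class (11 genes) held the most peaks, 180 in WT and 187 in KO of set 1 and 571 in WT and 498 in KO of set 2. Col1a2, which encodes the α2 chain of type I collagen, had 61 and 62 listed peaks in WT and KO of set 1 and 100 and 109 in set 2. Col3a1, the chain of type III collagen, had 48 and 43 in set 1 and 126 and 95 in set 2. The basement membrane class (6 genes) had 91, 95, 216 and 231 listed peaks in the order WT and KO of set 1, then WT and KO of set 2, most of them on Col4a1 and Col4a2. The 6 type VI genes had 59, 97, 173 and 162 in the same order. Col14a1, a chain found along fibrils, went from 0 and 9 listed peaks in set 1 to 57 and 26 in set 2.

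Most collagen peaks stood little above their input. The median log2 fold over input of collagen peaks was 0.57 in WT and 0.38 in KO of set 1, beside 0.68 and 0.38 over all listed peaks. In set 2 it was 0.47 in WT and 0.40 in KO, beside 0.47 and 0.45. Collagen peaks were thus close to the median of the lists in each library.

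Enriched collagen peaks numbered 15 of 399 in WT of set 1, which is 3.76% (95% Wilson interval 2.29 to 6.11) beside 3.57% of all listed peaks. They numbered 5 of 476 in KO of set 1, 1.05% (0.45 to 2.44) beside 0.848%. In set 2 they numbered 8 of 1232 in WT, 0.65% (0.33 to 1.28) beside 1.42%, and 16 of 1113 in KO, 1.44% (0.89 to 2.32) beside 1.23%. The intervals cover counting error only, and neighbouring peaks are not independent. At these thresholds the share of collagen peaks called was near that of all listed peaks in 3 libraries and below it in WT of set 2. This depended on the threshold. At a log2 fold of at least 1 with the same −log10 p, the collagen share in set 1 was 5.26% in WT and 3.99% in KO. All listed peaks gave 7.14% and 2.0% there. In set 2 it was 10.15% in WT and 8.54% in KO, beside 5.37% and 4.72%.

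Enriched peaks of the 4 libraries, 44 in all, merged into 21 sites on 12 genes, and each of the 21 sites was covered by a listed peak in all 4 libraries. Of the sites, 9 were enriched in at least 2 libraries and 12 in 1 library. How often enriched sites of all genes were listed or enriched in other libraries is not given here, so these site counts have no background. An enriched collagen peak overlapped an enriched peak of another library in 30 of 44 cases, 68.2% (53.4 to 80.0), beside 62.0% of all enriched peaks. Between the 2 WT libraries 1 of 15 peaks of set 1 and 1 of 8 of set 2 overlapped. Between the KO libraries 4 of 5 of set 1 and 5 of 16 of set 2 did. With KO of set 2, 7 of 15 WT peaks of set 1 and 5 of 8 of set 2 overlapped. Col1a1 and Col6a4 had an enriched peak in all 4 libraries, and Col3a1, Col4a2, Col5a2, Col6a1 and Col6a3 in at least 2. The share of all protein_coding genes with a listed or an enriched peak is not given here. The counts of 39 listed and 12 enriched genes among the 44 therefore have no background.

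The region of the transcript differed between listed and enriched collagen peaks. At the midpoint, 71.9% and 64.1% of listed collagen peaks were coding in WT and KO of set 1, and 76.3% and 71.0% in set 2, where all listed peaks were coding in 51.8%, 35.5%, 40.2% and 39.7%. The 3′ UTR held 11.3% and 16.2% of listed collagen peaks in set 1 and 6.25% and 6.83% in set 2. Among enriched collagen peaks it held 8 of 15 in WT and 4 of 5 in KO of set 1, and 4 of 8 in WT and 9 of 16 in KO of set 2. The 3′ UTR share also rose from listed to enriched peaks over all features, from 19.3% to 31.9% in WT and 18.3% to 35.4% in KO of set 1, and from 12.2% to 30.4% in WT and 11.4% to 32.9% in KO of set 2. As means over the sets, 51.7% ± 2.36 (SD, n = 2) of enriched WT peaks and 68.1% ± 16.8 (SD, n = 2) of enriched KO peaks were in a 3′ UTR, a difference smaller than the spread of the KO libraries. Of the 44 enriched peaks, 25 were in a 3′ UTR, 8 coding, 7 in a 5′ UTR and 4 intronic.

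**Figure D2:**
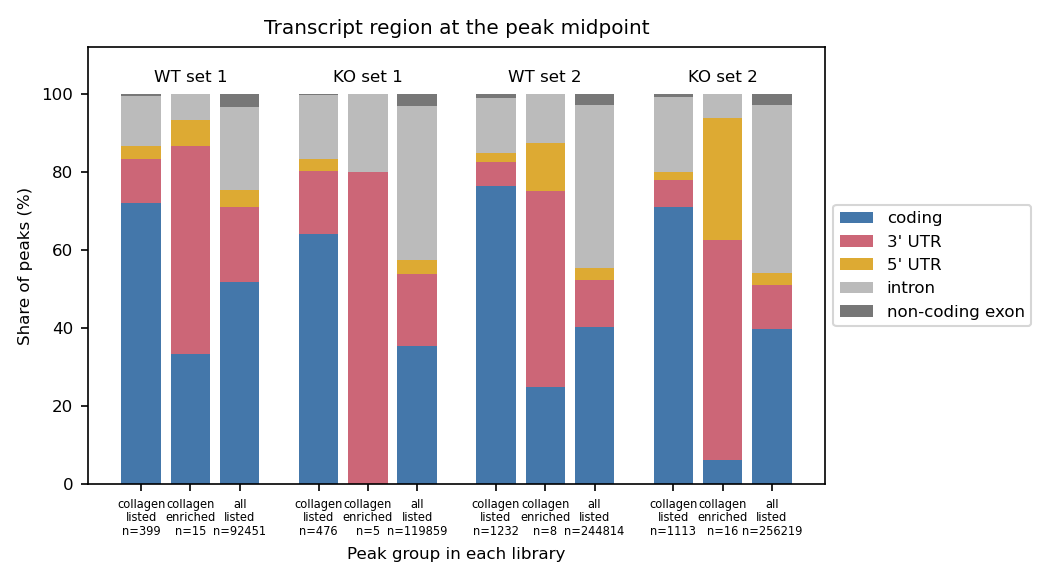
Share of peaks (y axis, %) whose midpoint lay in each transcript region, for listed collagen peaks, enriched collagen peaks and all listed peaks in each library, with the number of peaks under each bar. Coding sequence makes up 64.1% to 76.3% of listed collagen peaks, and the 3′ UTR makes up 50% to 80% of the few enriched ones.

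Among the fibrillar chains, Col1a1, the α1 chain of type I collagen, had the most enriched sites, 5. Its 3′ UTR site at chr11:94952676-94952855 reached a log2 fold over input of 4.60 in WT and 3.26 in KO of set 1, and 2.70 in WT and 3.33 in KO of set 2. It was enriched in 3 of the 4 libraries and held a match to none of the 5 seeds searched (miR-29, let-7, miR-206, miR-133 and miR-30). A second 3′ UTR site, at chr11:94951685-94951921, was enriched in both libraries of set 2, with 3.57 in WT and 3.18 in KO, and stood at 2.11 and 2.82 in set 1. The site with the miR-29 word, at chr11:94952442-94952575, was enriched in KO of set 1 at 3.17, beside 1.80 in WT of that set and 2.39 and 2.11 in WT and KO of set 2.

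Col3a1 carried its let-7 word under a 3′ UTR site at chr1:45349111-45349228 that reached 2.68 in WT and 3.50 in KO of set 1 and 4.11 in WT and 3.68 in KO of set 2. Both libraries of set 2 passed the thresholds there, and KO of set 1 missed the one on p. Its miR-29 word lay nearby under the site at chr1:45348972-45349024, with 2.36, 2.45, 2.85 and 3.12 in the order WT and KO of set 1, then WT and KO of set 2. Of these 4 libraries the KO library of set 2 passed the thresholds. The let-7 word of Col1a2 lay beside a site at chr6:4541090-4541219 that was enriched in WT of set 1 at 3.58 and stood at 2.23, 2.25 and 2.44 in the other libraries. Col5a2, a chain of type V collagen, was enriched in both libraries of set 2 over its 5′ UTR at chr1:45502848-45503068, with 3.46 in WT and 3.30 in KO, beside 1.73 and 2.61 in set 1. Col5a3 was enriched at its miR-29 word in KO of set 2 at 3.58, and the overlapping peaks reached 1.68, 0.38 and 2.80 in WT and KO of set 1 and WT of set 2.

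In the basement membrane class, the end of the Col4a2 transcript (chr8:11448276-11448659) was enriched in WT of set 1, with a highest fold of 4.38, and in KO of set 2, with 3.06. The other libraries reached 2.65 and 2.57 there. This site held both miR-29 words of Col4a2 shown above. Col4a1, its partner chain, was enriched in WT of set 1 at 3.28 over a site at chr8:11199702-11199874 that was coding at its midpoint and held a miR-29 word.

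In the type VI class, the 3′ UTR site of Col6a3 at chr1:90767147-90767588 was enriched in 3 libraries. The highest folds were 3.66 in WT and 3.54 in KO of set 1, and 2.94 in WT and 3.38 in KO of set 2. It held words for miR-29 and for miR-1 and miR-206, which share a seed and are known as muscle microRNAs. Sites of Col6a3 nearer its start were enriched as well: the site over the 5′ UTR and coding start at chr1:90830163-90830261 reached 3.83 in WT and 1.66 in KO of set 1, and 2.50 in WT and 4.01 in KO of set 2. Col6a2 was enriched at its miR-29 word in WT of set 1 at 4.30, and stood at 1.63, 0.88 and 1.81 in the other libraries. Col6a1 was enriched at chr10:76708987-76709117 in WT of set 1, at 4.08 beside 0.48, 1.24 and 1.18. Each of these sites of Col6a2 and Col6a1 was thus called in 1 library. Col6a1 had a further coding site, at chr10:76716261-76716324, that was enriched in WT of set 2 at 3.15 and reached 1.58, 0.80 and 2.38 in WT and KO of set 1 and KO of set 2. Col12a1, a fibril-associated chain named after its values were seen, was enriched in WT of set 2 at 3.06 over its 3′ UTR, beside 1.46, 2.05 and 2.82.

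Col6a4 stood apart because its single listed peak in each library was intronic and enriched in all 4. The peak is 26 nt long in 3 libraries, at chr9:106056074-106056099 on the minus strand, and its sequence is shown because its length is close to that of a small RNA.
Col6a4 intronic peak: tggacctatgctcttcgcacacgtgt
Its log2 fold over input was 4.52 and 4.32 in WT and KO of set 1 and 3.06 and 3.70 in set 2. The direct log2 fold of WT over KO there was 0.25 in set 1 and −0.78 in set 2. No other region of Col6a4 had a listed peak, so this peak is no measure of its mRNA.

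The gene of miR-455 lies in an intron of Col27a1, and the highest fold on Col27a1 in each library was a peak over it. They reached 3.12 in WT and 2.97 in KO of set 1 and 3.38 in WT and 3.05 in KO of set 2, with −log10 p between 1.68 and 2.41, so none was called enriched. These peaks lay over the 3′ arm of the hairpin, whose mature strand is shown with its seed in capitals.
miR-455-3p: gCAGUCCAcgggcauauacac
In set 2 a further peak lay over the 5′ arm, at 2.06 in WT and 2.41 in KO.

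Seed words for miR-29 were denser in collagen transcripts than in protein_coding transcripts as a whole. Collagen 3′ UTRs held 44 words in 65707 nt, 0.67 per kb, against 0.11 per kb over all 3′ UTRs. Of the 44 genes, 24 had at least 1 word there, as did 13.6% of the 21756 protein_coding genes with a 3′ UTR. Collagen coding sequences held 106 words, 0.53 per kb, against 0.15 per kb over all coding sequences. In collagens 94 of the 106 coding words, 88.7%, were read in frame as the codons GGT and GCT for glycine and alanine, against 30.8% of all coding words. The words of the coding peaks of Col1a1 are shown for this reason.
Col1a1, chr11:94947278-94947284, plus strand: cttacagggtaacgtTGGTGCTcctggacc
Col1a1, chr11:94947305-94947311, plus strand: acccaaaggtcctcgTGGTGCTgctggtcc
Col1a1, chr11:94947451-94947457, plus strand: tgctactggcttcccTGGTGCTgctggccg
They lay under the 2 coding sites of Col1a1 that were enriched in WT of set 1, at 3.08 and 3.04, and at no more than 2.25 in the other libraries. Most collagen words in coding sequence were thus read as glycine followed by alanine, and their origin was not tested.

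Of the 44 words in collagen 3′ UTRs, 32 lay under a listed peak extended by 25 nt on each side in at least 1 library, 12 in all 4, and 7 under an enriched peak. The same counts over the miR-29 words of all 3′ UTRs are not given here, so these counts have no background. Among the 25 enriched 3′ UTR peaks of collagens, 10 held the word, 40.0% (23.4 to 59.3), where 6.76% of all 3504 enriched 3′ UTR peaks did. By library these were 4 of 8 in WT and 2 of 4 in KO of set 1, and 0 of 4 in WT and 4 of 9 in KO of set 2. The 10 peaks lie at 6 separate sites, and the words were more common in collagen 3′ UTRs to begin with, so the share measures the transcripts and the peaks together. The let-7 word was in 4 of the 25 (16%, beside 5.11% of all), miR-206 in 4 (16%, beside 17.8%), miR-133 in 1 (4%, beside 9.10%) and miR-30 in 0 (beside 7.19%). Of the 4 peaks with the let-7 word, 3 were at 1 site of Col3a1 and 1 was on Col1a2. The miR-29 word was not confined to the 3′ UTR. Among enriched collagen peaks elsewhere it was in 4 of 7 in WT and 0 of 1 in KO of set 1. In set 2 it was in 1 of 4 in WT and 4 of 7 in KO. These included peaks with words in the 5′ UTRs of Col3a1, Col5a2 and Col6a3. The share over all enriched peaks outside the 3′ UTR is not given here.

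Collagen 3′ UTR peaks with a miR-29 word had the higher median fold over input in each of the 4 libraries. In WT of set 1 the median log2 fold was 2.28 over 14 peaks with the word and 1.46 over 31 without. In KO of set 1 it was 1.51 over 16 and 0.91 over 61. In set 2 it was 1.57 over 24 and 1.28 over 53 in WT, and 1.93 over 24 and 1.52 over 52 in KO. The difference was 0.53 ± 0.23 (SD, n = 4 libraries), and the peaks with and without the word overlapped widely. The libraries span both genotypes and share sites, with 12 words under a listed peak in all 4. Enriched peaks with and without the word numbered 4 and 4 in WT and 2 and 2 in KO of set 1. In set 2 they numbered 0 and 4 in WT and 4 and 5 in KO. The same difference over all 3′ UTR peaks, or for other words, is not given here. Collagen 3′ UTR peaks of both kinds were above the median of all 3′ UTR peaks, which was 0.87 and 0.61 in set 1 and 0.60 and 0.56 in set 2.

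**Figure D3:**
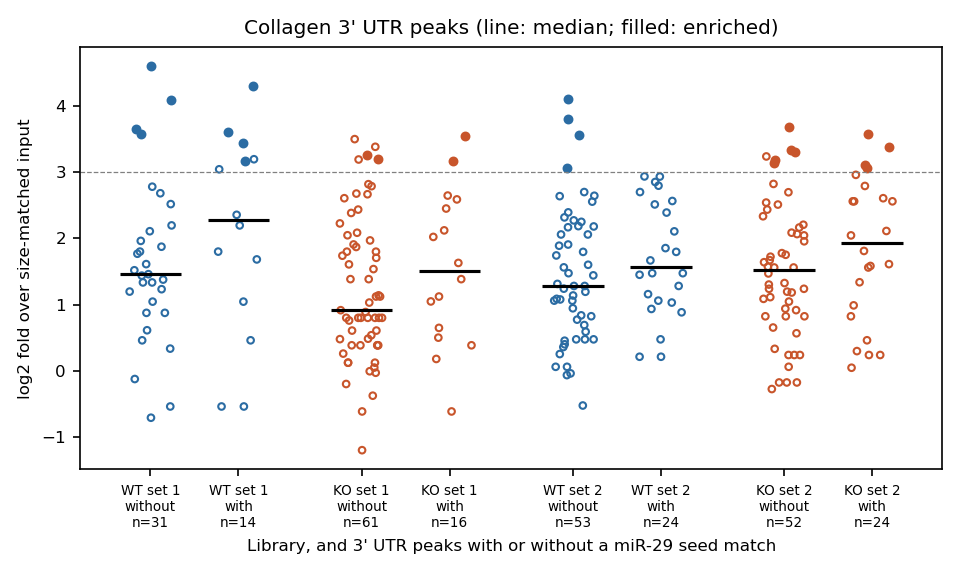
Log2 fold over size-matched input (y axis) of each listed collagen 3′ UTR peak, without and with a miR-29 seed match, in each library, with the median as a black line, filled points for enriched peaks and the log2 threshold of 3 dashed. The median is higher with the word in the 4 libraries, from 2.28 against 1.46 in WT of set 1 to 1.57 against 1.28 in WT of set 2, and the points overlap.

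Peaks over the miR-29 hairpins themselves stood high above input. The Mir29a hairpin had 1 listed peak per library, with log2 folds over input of 8.40 and 7.45 in WT and KO of set 1 and 10.31 and 10.33 in set 2. Its direct log2 fold of WT over KO was 0.29 in set 1 and −0.14 in set 2. Mir29b-1, Mir29b-2 and Mir29c had listed peaks in each library, with median log2 folds over input from 3.54 to 7.16. At the WT peaks their median direct log2 folds of WT over KO differed in sign. They were 0.45 and 0.02 in sets 1 and 2 for Mir29b-1, 0.53 and 0.06 for Mir29b-2, and −0.23 and −0.33 for Mir29c.

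The direct comparison of the WT and KO libraries asked whether collagen RNA held by AGO2 differed with genotype. It was read from 1 list per library, in which each of its peaks was set against the library of the other genotype in the same set. Each list is read at the peaks of its own library, which raises its values, so the median over all listed peaks was above 0 in both directions: 0.74 and 0.72 in set 1, and 0.30 and 0.27 in set 2. Direct folds were repeated too. The commonest value was shared by 10.8% of collagen peaks at the WT peaks and 15.8% at the KO peaks of set 1. In set 2 it was shared by 6.6% and 6.3%. An exact permutation test (two-sided) of 2 libraries against 2 cannot give a p below 0.333, and genotypes were therefore described without a test.

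No collagen peak passed the thresholds of log2 3 and −log10 p 3 in any direct list. In set 1, 0 of 399 WT-over-KO peaks did, which allows a share of up to 0.752%, beside 0.469% of all listed peaks, and 0 of 476 KO-over-WT peaks, up to 0.63%, beside 0.179%. In set 2 it was 0 of 1232, up to 0.244%, beside 0.0192%, and 0 of 1113, up to 0.27%, beside 0.0144%.

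In set 2 collagen peaks were nonetheless higher in WT, by less than that threshold and in both lists. At the WT peaks the median log2 fold of WT over KO was 0.78, and 1115 of 1232 peaks (90.5%) were above 0, beside 67.1% of all listed peaks. At the KO peaks the median log2 fold of KO over WT was −0.54, and 298 of 1113 (26.8%) were above 0, beside 62.6%. At a log2 fold of at least 1 with the same −log10 p, 167 of the 1232 WT peaks (13.6%) were called, beside 0.403% of all listed peaks. In the other direction 0 of 1113 were, beside 0.144%.

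Set 1 did not have this difference. The median was 0.48 at the WT peaks and 0.43 at the KO peaks, both below the medians of all listed peaks. At a log2 fold of at least 1, 9 of 399 WT peaks (2.26%) were called, beside 4.85% of all, and 10 of 476 KO peaks (2.10%), beside 0.755%. The median of WT over KO at the WT peaks was 0.63 ± 0.21 (SD, n = 2 sets), beside 0.52 ± 0.32 over all listed peaks.

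To take out the rise that each list gives its own library, the difference between the 2 list medians was divided by 2 and is called the balanced value, positive where WT was higher. Over all collagen peaks the balanced log2 WT over KO was 0.66 in set 2, where all listed peaks gave 0.02, and 0.03 in set 1, where all listed peaks gave 0.01. The mean of 0.34 ± 0.45 (SD, n = 2 sets) did not exceed the SD of the 2 sets.

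Col3a1 carried the largest balanced value of the collagen genes in set 2, 1.40. Its median was 1.39 at 126 WT peaks and −1.40 at 95 KO peaks, and 126 of the 126 WT peaks were above 0. It also gave 106 of the 167 peaks called at a log2 fold of at least 1. In set 1 its balanced value was 0.16, from 0.16 at 48 WT peaks and −0.16 at 43 KO peaks. The median over all genes counted in set 1 was the same, 0.16. The rest of the 167 came from 10 genes, with 25 on Col4a1, 10 on Col1a1, 8 on Col1a2, 6 on Col4a2, 4 on Col6a3, 3 on Col5a1, 2 on Col6a2 and 1 each on Col5a2, Col6a1 and Col15a1.

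The other chains of the same assemblies had lower values in set 2. For type I collagen the balanced value was 0.65 for Col1a1 and 0.52 for Col1a2, and for type V it was 0.84 for Col5a1, 0.62 for Col5a2 and 0.76 for Col5a3. Type IV gave 0.91 for Col4a1 and 0.70 for Col4a2, but 0.08 for Col4a3. Type VI gave 0.52 for Col6a1, 0.64 for Col6a2 and 0.68 for Col6a3, but 0.20 for Col6a6. The fibril-associated Col14a1 gave 0.59 and Col15a1, a basement membrane zone collagen whose end fragment resembles endostatin, gave 0.55. All 12 genes with the most listed peaks were above 0 in set 2, and 5 of 11 were in set 1, where Col14a1 had no WT peak.

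Across the 25 collagen genes with at least 5 peaks in both lists of set 2, the median balanced value was 0.52 (range −0.17 to 1.40), and 21 of 25 were above 0, beside a median of 0.05 and 57.9% above 0 over the 8830 protein_coding genes with as many peaks. Those below 0 were Col22a1, Col23a1, Col24a1 and Col27a1, named after their values were seen. Across the 15 genes that could be counted in set 1, the median was −0.07 (range −0.93 to 0.45) and 7 were above 0, beside 0.16 and 63.3% over 5212 genes. Of the 15, 14 had the higher value in set 2, and Col22a1 the lower. Col15a1 was lowest in set 1, at −0.93.

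**Figure D4:**
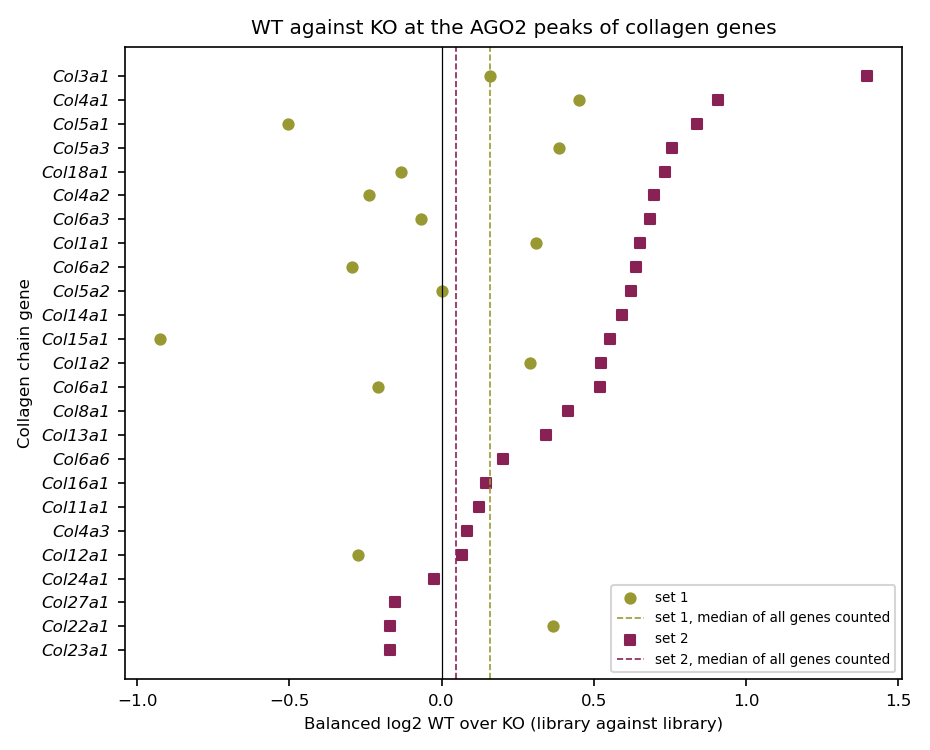
Balanced log2 WT over KO (x axis) of each collagen gene with at least 5 peaks in both direct lists, circles for set 1 and squares for set 2, with the median of all genes counted as a dashed line in the colour of its set. In set 2, 21 of 25 genes lie above 0, led by Col3a1 at 1.40, and in set 1, 7 of 15 do.

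The set 2 difference was in coding and 3′ UTR peaks alike. The balanced value was 0.73 for coding collagen peaks, where all coding peaks gave 0.01, and 0.75 for 3′ UTR peaks, where all 3′ UTR peaks gave 0.21. Intronic collagen peaks gave 0.10, beside 0.01. In set 1 collagen 3′ UTR peaks went the other way, at −0.48 beside 0.06, and coding peaks stood at 0.19 beside 0.49. At the miR-29 word of the Col3a1 3′ UTR, for example, the direct log2 fold of WT over KO was −1.24 at the WT peak of set 1 and 1.90 at the WT peaks of set 2.

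The difference between inputs that the lists imply moved with this difference. At 834 overlapping pairs of WT and KO collagen peaks in set 2, the median direct log2 WT over KO was 0.73, while the fold over input differed between WT and KO by 0.00 in the median. The difference between the WT and KO inputs that these values imply was 0.73, beside 0.02 over 131458 pairs of all listed peaks. For Col3a1 the direct value was 1.40, the difference over input −0.07 and the implied input difference 1.53. For Col4a2 the direct value of 0.90 came with 0.51 over input and 0.48 between inputs. In set 1 the implied input difference was −0.11 over 239 collagen pairs, beside −0.22 over all. No list compares the inputs, so their difference was inferred from the other folds and not measured. In the median over the collagen pairs of set 2 it was about as large as the direct difference. By gene it could be smaller, as for Col4a1 (0.752 against 1.015), or larger, as for Col6a3 (0.944 against 0.665). In bulk muscle, fewer cells of a type and less RNA per cell cannot be told apart.

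Genes that make and hold collagen were read from lists written with earlier results of these data known, beside all genes counted, of which 57.9% were above 0 in set 2 and 63.3% in set 1. For collagen modification, secretion and crosslinking, 21 of 25 counted genes (84.0%) were above 0 in set 2, with a median of 0.33. Serpinh1, the collagen chaperone of the endoplasmic reticulum, had a balanced value of 1.14, the procollagen C-proteinase enhancer Pcolce 0.78, and Lox, which crosslinks collagen, 0.68. Those below 0 were Mia3 (−0.22), P3h1 (−0.17), Ppib (−0.16) and P4ha2 (−0.09). Among matrix partners, receptors and proteases, 17 of 20 (85.0%) were above 0, with a median of 0.46. The matricellular genes Postn and Sparc had 1.45 and 0.84 and the proteoglycan Bgn 0.84, but the proteoglycans Dcn and Fmod stood at 0.10 and −0.58. In set 1 the first list had 9 of 13 (69.2%) above 0, near the share of all genes, with a median of 0.45, and the second 4 of 15 (26.7%) with a median of −0.30. Serpinh1 and Lox were high in set 1 as well, at 0.97 and 0.82, while Pcolce stood at −0.15.

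Cell type markers were read in the same way. All 7 fibroblast markers were above 0 in set 2, from 0.10 (Dcn) to 0.88 (Dpt), with a median of 0.39, and 1 of 6 was in set 1, with a median of −0.35. Endothelial markers had a median of −0.19 in set 2, with Emcn (0.63) and Cdh5 (0.21) above 0 and the other 4 below, and of −0.21 in set 1, with 1 of 5 above 0. Smooth muscle and pericyte markers had a median of 0.14 in set 2, with 5 of 5 above 0, and of −0.07 in set 1, with 2 of 5. Tendon markers had a median of −0.03 in set 2 (1 of 3 above 0) and −0.37 in set 1 (1 of 2), and Schwann cell markers −0.46 (1 of 3) and −0.36 (0 of 2). The satellite cell markers Pax7 and Chodl stood at −0.01 and −0.24 in set 2 and were not counted in set 1. Myofibre markers had a median of 0.00 in set 2 (range −0.09 to 0.23), and 0.80 in set 1 (range 0.22 to 1.74). Some markers are also matrix genes, Dcn, Lum and Fmod being on both kinds of list. The part of fibroblast content in the collagen values was not tested.

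**Figure D5:**
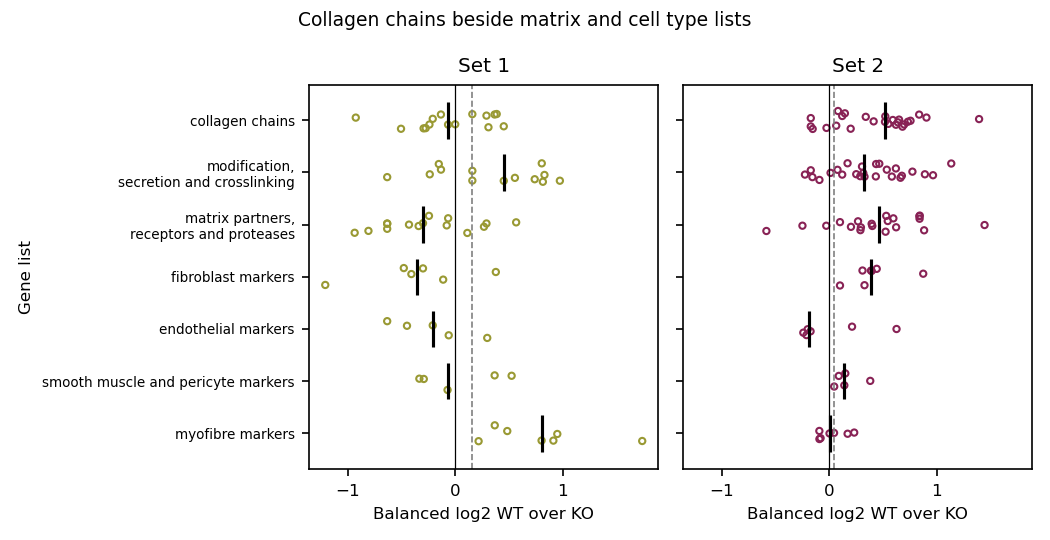
Balanced log2 WT over KO (x axis) of each counted gene on 7 gene lists, in set 1 (left) and set 2 (right), with the list median as a black bar, 0 as a solid line and the median of all genes counted as a dashed line. In set 2 the collagen chains (median 0.52) and both matrix lists (0.33 and 0.46) lie to the right of the myofibre markers (0.00), and in set 1 the myofibre markers (0.80) lie furthest right.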

How the data were processed

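Per the labels, chimeric eCLIP was done on TA muscle of WT and mir-486 KO mice. The authors trimmed reads with cutadapt, aligned them with STAR, and ran CLIPper on each library. Reads under a peak were then compared between that library and another, and peaks that overlapped were collapsed. The sets were kept apart. The authors deposited 8 peak lists, with a log2 fold and the −log10 of a p-value for each peak: 4 of a library over its input, and 4 of WT over KO or KO over WT. These folds and p-values are the authors' own and were used as deposited to describe and filter peaks. Whether read counts behind a peak are many or few is not given, so depth is unknown.

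Peaks (GRCm38, 1-based here) were joined to GENCODE M21 genes on the same strand by at least 1 nt, an earlier release than the labels name. A region was read at the peak midpoint, coding before UTR before non-coding exon before intron. Each word was the complement of bases 2 to 8 of a RefSeq mature microRNA, searched on the transcript strand in peaks extended by 25 nt in the RefSeq GRCm38.p6 genome. The miR-206 and miR-133b sequences stood for their families (miR-1 with miR-206, and miR-133), and miR-486 words were not analysed here. Words in 3′ UTRs were counted outside bases that are coding in another transcript of the gene, and coding words in the longest coding sequence of each gene. Thresholds were a log2 fold of 3 and a −log10 p of 3, and 1 as a lower log2 threshold. Genes needed 5 peaks in both direct lists to be counted. The balanced value was added after the data were seen. Shares have 95% Wilson intervals, and a count of 0 allows 3 counts. Both cover counting error only.

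Named genes are the 12 with the most listed peaks, those enriched in at least 2 libraries, and those with an enriched 3′ UTR peak holding a miR-29 word. Genes past both thresholds in a direct list were also to be named, and there were none. The members and lists were chosen with earlier results of these data known. Analyses used Python 3.11.15, NumPy 2.4.6 and pandas 2.3.3, and the functions were tested on simulated peaks.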

Additional observations from a re-analysis of the deposited data

How the results depend on the processing

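No paired analysis was possible because the results come from no test: the direct lists already set WT against KO within each set, and 2 sets allow no test of their mean. Enriched collagen peaks per library averaged 11.5 in WT and 10.5 in KO. A log2 threshold of 1 gave 73 and 57, and one of 4 gave 3 and 1.5. With the threshold of 1 the collagen share was above that of all listed peaks except in WT of set 1, where it was below. At the main thresholds either set alone gave 15 and 8 in WT, and 5 and 16 in KO. Genes with an enriched peak fell from 12 to 7 at a log2 threshold of 4, and ranged from 9 (without WT of set 1) to 12 (without KO of set 1) when 1 library was left out. The median log2 WT over KO of 0.63 became 0.056 at the KO peaks with the sign turned, 0.11 after the median of all listed peaks was subtracted, 0.34 as the balanced value and 0.33 as the balanced value minus that of all listed peaks, while either set alone gave 0.48 and 0.78. Direct peaks past the thresholds numbered 0 and 0 over the 2 sets, against 176 (WT over KO) and 10 (KO over WT) at a log2 threshold of 1, and 3 WT-over-KO peaks at a −log10 p threshold of 2. The 3′ UTR share of enriched WT peaks of 51.7% became 48.3% at the 5′ end of peaks, 55.0% with the 3′ UTR before coding sequence, and 8.76% over all listed peaks, where KO went from 68.1% to 11.5%. Either set alone gave 50% to 53.3% in WT and 56.2% to 80.0% in KO. The miR-29 share of 40.0% became 60.0% for a 6-nt match. The share of enriched peaks that recurred fell from 68.2% to 47.7% when an overlap of 50% of both peaks was required. The cause of these shifts was not tested. Since the reads behind each peak are unknown and many folds repeat 1 value, differences between single peaks have no counting error here and were not tested.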
